A study of Mus musculus with 8 samples.

Results

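Neat1, Malat1 and the 3 core proteins of the paraspeckle, Sfpq, Nono and Pspc1, were examined in bone marrow-derived macrophages (BMDMs) with and without Nudt21. The members were the rows of these 5 symbols among 21080 symbols in the deposited tables, and all 5 were found in every sample. The series held 8 RNA-seq samples, 2 for each of 4 groups: WT and Nudt21-cKO BMDMs at 0 h, and the same genotypes after IFNγ overnight followed by LPS for 4 h. Nudt21-cKO mice were Nudt21 fl/fl LysM-Cre and the WT controls were sex-matched LysM-Cre littermates, so all 4 groups carried the myeloid LysM-Cre driver, all mice were on the C57BL/6 background, and deletion was limited to cells in which LysM-Cre is active. The sources used here give no age or sex of the mice. Each sample pooled BMDMs from 2 mice, WT samples are numbered 1 and 2 and cKO samples 3 and 4, and the labels do not say whether equal numbers at 0 h and 4 h mark the same mice. With 2 samples per group, the p-values measure the spread between these pools.

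Paraspeckles are nuclear bodies that assemble on the long form of the noncoding RNA Neat1. Sfpq, Nono and Pspc1 belong to the DBHS family of RNA-binding proteins, and Sfpq and Nono are needed to keep the long form stable. The Neat1 gene also gives a short polyadenylated RNA that ends at an early poly(A) site. The CFIm complex, which consists of Nudt21 with Cpsf6 or Cpsf7 and binds UGUA motifs, favours that early site, whereas Hnrnpk counters it. Long Neat1 and Malat1, an abundant RNA of nuclear speckles that lies beside Neat1, carry no conventional poly(A) tail, because RNase P cuts their 3′ ends. In macrophages paraspeckles have been linked to the nuclear retention of RNAs and to innate immune gene expression.

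The 3′ ends are shown because Nudt21 acts there. They were read from the GENCODE M21 transcripts (GRCm38), with TGTA, the DNA letters of UGUA, in capitals, together with the AATAAA or ATTAAA poly(A) signal where the stretch holds one. Neat1 lies on the minus strand of chromosome 19 at chr19:5824708-5845478. Its long transcript Neat1-201 is 1 exon of 20771 bases, and the short Neat1-202 shares the 5′ part and ends at base 5842307 after 3004 spliced bases. The stretches from Neat1-202 are chr19:5842405-5842422, chr19:5842358-5842387 and chr19:5842307-5842330.
Neat1-202, TGTA upstream of the last pair: aagaaagcTGTAactgca
Neat1-202, last pair of TGTA: tctcTGTActaaagtgttcagTGTAcaaac
Neat1-202, poly(A) signal and end: gcaaAATAAAggtttgagattgaa
The last pair of TGTA motifs begins 77 and 60 bases before the annotated end. Of 52148 protein-coding and lincRNA transcripts in the basic annotation with a complete 3′ end and at least 100 bases, 15.7% held 2 or more TGTA in their last 100 bases and 46.8% held at least 1, counted on the sense strand.

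The long Neat1 and Malat1 transcripts end without TGTA in their last 100 bases. Neat1-201 had 135 TGTA over its whole length and none in the last 100 bases, and its last 30 bases at chr19:5824708-5824737 end in runs of A, in capitals. Malat1-201, a 1-exon transcript of 6983 bases at chr19:5795690-5802672 on the same strand, had 44 TGTA in all and none in the last 100 bases. Its stretch is chr19:5795690-5795715 and holds AATAAA, in capitals. Whether this annotated end is the one cut by RNase P was not examined. Between Malat1 and the end of long Neat1 lie 22035 bases.
Neat1-201, end: gagaacgaacgtgagcaggAAAAAgcAAAA
Malat1-201, end: atgaAATAAAaactaaatatctctca

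Among the 3 DBHS mRNAs, Pspc1 alone held TGTA in the last 100 bases of the coding transcripts examined. Pspc1 lies on chromosome 14 (minus strand), and its longest transcript Pspc1-201 has 26 TGTA over 4114 bases with the last 38 bases before the end. Sfpq-201 on chromosome 4 (plus strand) has 15 TGTA over 3465 bases and Nono-201 on chromosome X (plus strand) has 2 over 2562 bases. The stretches are chr14:56720721-56720750, chr4:127031207-127031236 and chrX:101448562-101448591. A match to these letters is a description of the annotated ends and not a measured site.
Pspc1-201: aatTGTAgttaataatcatatAATAAAgaa
Sfpq-201: gatAATAAAgtagattggttactgttggga
Nono-201: ccttATTAAAatacatttgaagccttttca

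Levels are given as coverage, the mean number of reads over each base of a gene's transcripts, as the authors deposited it. Coverage is already per base, so levels of different genes can be set side by side, but it was not scaled between samples. Summed coverage was 14950347 to 17954882 per sample. The median coverage of the 16284 genes with a mean of at least 0.5 was 149 to 166 at 0 h but 49.8 to 70.4 at 4 h, and each change of the members is therefore given on the deposited scale and again after each sample was centred on its median. The deposited values combine the short and long forms of Neat1, so a change in which form is made cannot be told from a change in level. The forms have 3004 and 20771 bases, so such a change could itself move the value per base. Its part in the Neat1 values was not tested. Whether the libraries were selected for poly(A) RNA is not given in the sources used here. As a measure of RNA without a poly(A) tail, the summed coverage of 65 clustered histone symbols was 6247 and 5419 in the WT pair and 7045 and 7119 in the cKO pair at 0 h, and 1016 and 1067 in the WT pair and 1944 and 2218 in the cKO pair at 4 h, so the cKO pair stood above the WT pair at each time. These sums are unscaled, and the sample medians were also higher in cKO, by 0.09 at 0 h and 0.34 at 4 h on the log2 scale. They also depend on how far the histone genes were expressed, and this was not tested. The part of such RNA in the levels of Neat1 and Malat1 was not tested either.

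The deletion was seen in the labelled samples. Nudt21 coverage was 718 and 641 in the WT pair and 158 and 172 in the cKO pair at 0 h, and 547 and 575 in the WT pair and 142 and 115 in the cKO pair at 4 h. Macrophage markers were abundant in every sample, with a summed coverage of 70221 to 138371 over 10 genes. The 7 T and NK cell markers summed to 149 to 206 at 0 h and 16.3 to 30.5 at 4 h, most of it Cd4, while Cd3e was at most 1.02 and Trac at most 5.94, whereas the neutrophil and progenitor list, led by S100a8 and S100a9, summed to 15912 to 31353. Marker genes called at 4 h, by limma on the log2 scale, were Cd68 (1.07 higher in cKO), Lyz2 (0.82) and Mrc1 (−1.68) of the macrophage list, Camp (0.66) of the neutrophil list, Ighm (−0.75), Zbtb46 (1.53), Xcr1 (−3.17, from 17.5 and 52.4 to 4.64 and 2.32) and Col3a1 (1.22). Lyz2, Camp and Col3a1 lost the call under each of 3 other scalings, Lyz2, Ighm and Col3a1 in all 4 fits without 1 sample, and Mrc1, Camp and Xcr1 in 3 of the 4. At 0 h Cd68, Ighm, Col3a1 and Pdgfra were called higher and Adgre1, Fcgr1, Mrc1 and Cd79b lower, and their part in the members' values was not tested. Fewer cells of a type and less RNA per cell cannot be told apart in these bulk samples.

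Sfpq and Nono were the most abundant of the 5 genes. Sfpq coverage ranged from 2276 to 3193 and Nono coverage from 2558 to 3741 over the 8 samples, which placed them at the 93.5th percentile or above among the genes ranked. Malat1 ranged from 476 to 1407. Pspc1 was far lower than the other DBHS genes, at 182 to 316. On the deposited scale Neat1 had the widest range of the 5 genes, from 173 in a cKO sample at 4 h to 1806 in a WT sample at 0 h, a 10.5-fold range that took it from the 61.5th to the 91.6th percentile. On the same scale the range was 1.40-fold for Sfpq, 1.46-fold for Nono, 1.73-fold for Pspc1 and 2.96-fold for Malat1. At equal sample medians this order did not hold, with ranges of 4.77-fold for Neat1, 4.88-fold for Pspc1, 4.31-fold for Nono, 3.94-fold for Sfpq and 2.54-fold for Malat1.

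**Figure D1:**
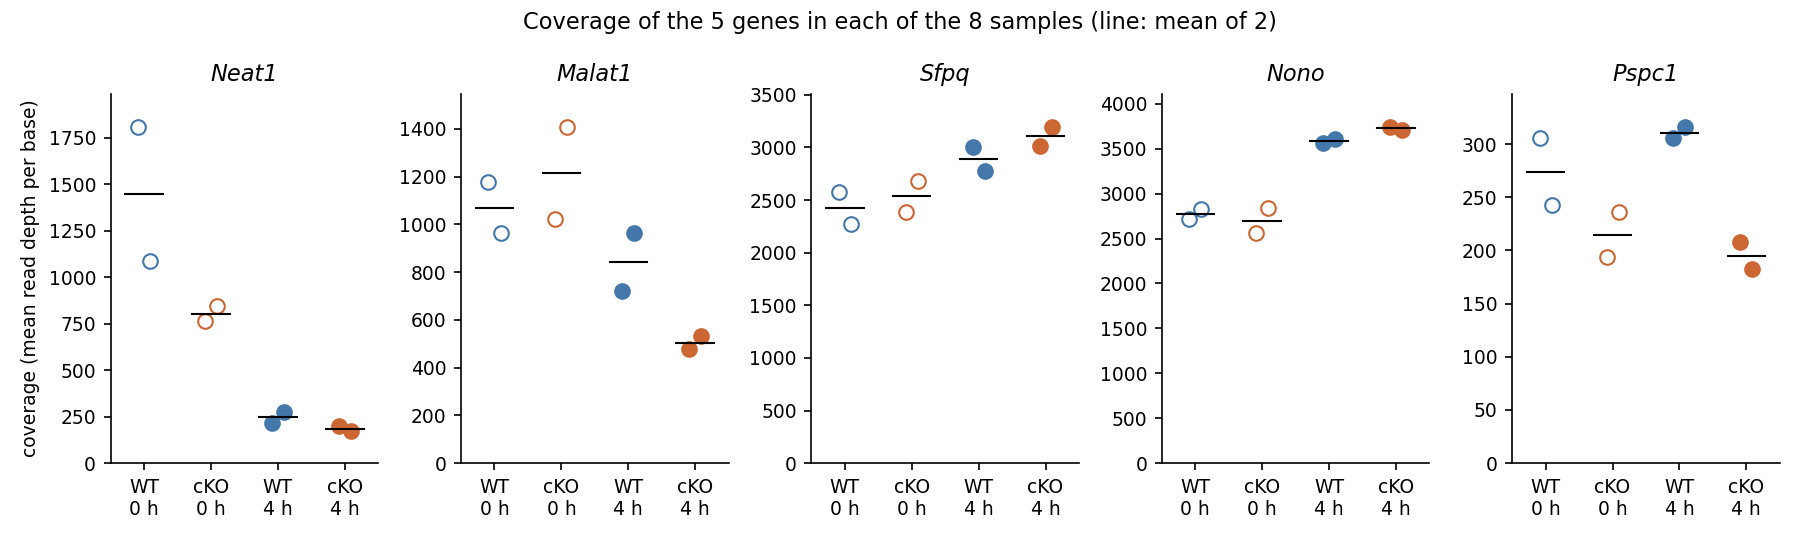
Coverage (mean read depth per base, linear axes from 0) of each gene in all 8 samples, with open points for 0 h, filled points for 4 h, blue for WT, orange for cKO and a line at the mean of 2 samples. Neat1 falls from 761 to 1806 at 0 h to 173 to 274 at 4 h, and the cKO pair lies below the WT pair for Pspc1 at each time.

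The first question was whether loss of Nudt21 changed these RNAs in resting BMDMs. A gene was called when its fold change exceeded 1.5 with an unadjusted limma p under 0.05. The thresholds are those of the study, whose RNA-seq methods name no test for the p-value, and limma was chosen here. Adjusted p-values are from limma with Benjamini-Hochberg correction over all genes tested. At 0 h, 14.6% of 16251 genes were called and 167 had an adjusted p under 0.05. None of the 5 members was called.

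Neat1 coverage at 0 h was 1806 and 1084 in the WT pair (1445 ± 511, SD, n = 2) and 761 and 846 in the cKO pair (804 ± 59.9, SD, n = 2). Both cKO samples were below both WT samples, as were 20.9% of all genes tested, but the WT samples were themselves far apart. The log2 fold change was −0.80 ± 0.32 (SE), with an adjusted p of 0.29 by limma, and −0.89 after median-centring (adjusted p = 0.24, limma). It missed the call on its p, and was called under 3 other settings that left its size as it was (a filter at a mean of 5, a variance trend on level, and all 8 samples in the fit). Without WT sample 1 the log2 fold change was −0.43 and without WT sample 2 it was −1.17, so the size of the difference rests on which WT sample is used. WT sample 1 was also the higher of the WT pair for 16 of 20 other long noncoding RNAs with coverage of at least 10 in both, by a median of 1.39-fold, against 0.992-fold over all such genes. The part of that in the Neat1 value was not tested.

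Malat1 at 0 h was 1175 and 965 in the WT pair and 1021 and 1407 in the cKO pair, and the groups overlapped. Its log2 fold change was 0.17 with a 95% interval of −0.58 to 0.92, and 0.08 after median-centring (−0.56 to 0.71). Neat1 and Malat1 lie side by side, and their ratio within a sample does not change when a sample is multiplied by a constant. Neat1 coverage was 1.54 and 1.12 times that of Malat1 in WT but 0.745 and 0.601 times in cKO, so Neat1 exceeded Malat1 in both WT samples and in neither cKO sample.

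The DBHS genes moved little at 0 h. Pspc1 was 305 and 242 in the WT pair and 193 and 236 in the cKO pair, lower in both cKO samples by a narrow margin, with a log2 fold change of −0.35 ± 0.20 (SE; adjusted p = 0.41, limma), and −0.44 after median-centring (adjusted p = 0.27, limma). Sfpq was 2573 and 2276 in the WT pair and 2387 and 2685 in the cKO pair. Nono was 2720 and 2829 in the WT pair and 2558 and 2842 in the cKO pair. Both overlapped between genotypes, with log2 fold changes of 0.07 (95% interval −0.37 to 0.50) for Sfpq and −0.04 (−0.41 to 0.32) for Nono, and after median-centring the sign for Sfpq turned to −0.03 and Nono stood at −0.13.

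After IFNγ/LPS, Pspc1 and Malat1 were lower in cKO than in WT BMDMs. At 4 h 25% of 14950 genes were called, but only 4.17% were called lower, and 577 genes had an adjusted p under 0.05. The median gene was 0.34 higher in cKO on the log2 scale by the sample medians, a shift that median-centring removes.

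Pspc1, the least abundant DBHS gene, showed the steadiest difference. Its coverage was 306 and 316 in the WT pair (311 ± 7.24, SD, n = 2) and 208 and 182 in the cKO pair (195 ± 18.3, SD, n = 2). The groups were well apart, with cKO lower, as for 14.9% of all genes tested. It fell by 0.67 ± 0.12 (SE) on the log2 scale, a 1.60-fold difference, with an adjusted p of 0.077 by limma, and by 1.01 after median-centring (adjusted p = 0.082, limma). The call was kept without WT sample 1 or cKO sample 3 and lost without WT sample 2 (−0.65) or cKO sample 4 (−0.58). Within a sample, Pspc1 was 0.0857 and 0.0877 times Nono in WT and 0.0556 and 0.0491 times Nono in cKO.

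Malat1 coverage at 4 h was 721 and 965 in the WT pair and 476 and 532 in the cKO pair, and the groups did not overlap. It fell by 0.73 ± 0.21 (SE), a 1.66-fold difference, with an adjusted p of 0.12 by limma, and by 1.07 after median-centring (adjusted p = 0.080, limma). Of the fits that each leave out 1 sample, only the fit without WT sample 1 kept the call, where the log2 fold change was −0.94. The fit without WT sample 2 gave −0.52.

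Neat1 at 4 h was 217 and 274 in the WT pair and 198 and 173 in the cKO pair. Both cKO samples were again the lower ones. The log2 fold change was −0.40 ± 0.18 (SE; adjusted p = 0.24, limma), which was not called on the deposited scale, and −0.74 after median-centring, which was called (adjusted p = 0.10, limma), as were 9.9% of genes in that direction on that scale. Leaving out 1 sample moved the deposited value between −0.56 (without WT sample 1) and −0.23 (without WT sample 2).

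Neither Sfpq nor Nono was called at 4 h. Sfpq was 3000 and 2778 in the WT pair and 3017 and 3193 in the cKO pair, and Nono was 3565 and 3603 in the WT pair and 3741 and 3713 in the cKO pair. Both cKO samples were the higher ones for either gene, as for 51.1% of genes tested, by log2 fold changes of 0.10 (95% interval −0.24 to 0.45) and 0.06 (−0.24 to 0.36). The signs turned to −0.23 and −0.28 after median-centring, and neither was called on that scale either.

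**Figure D2:**
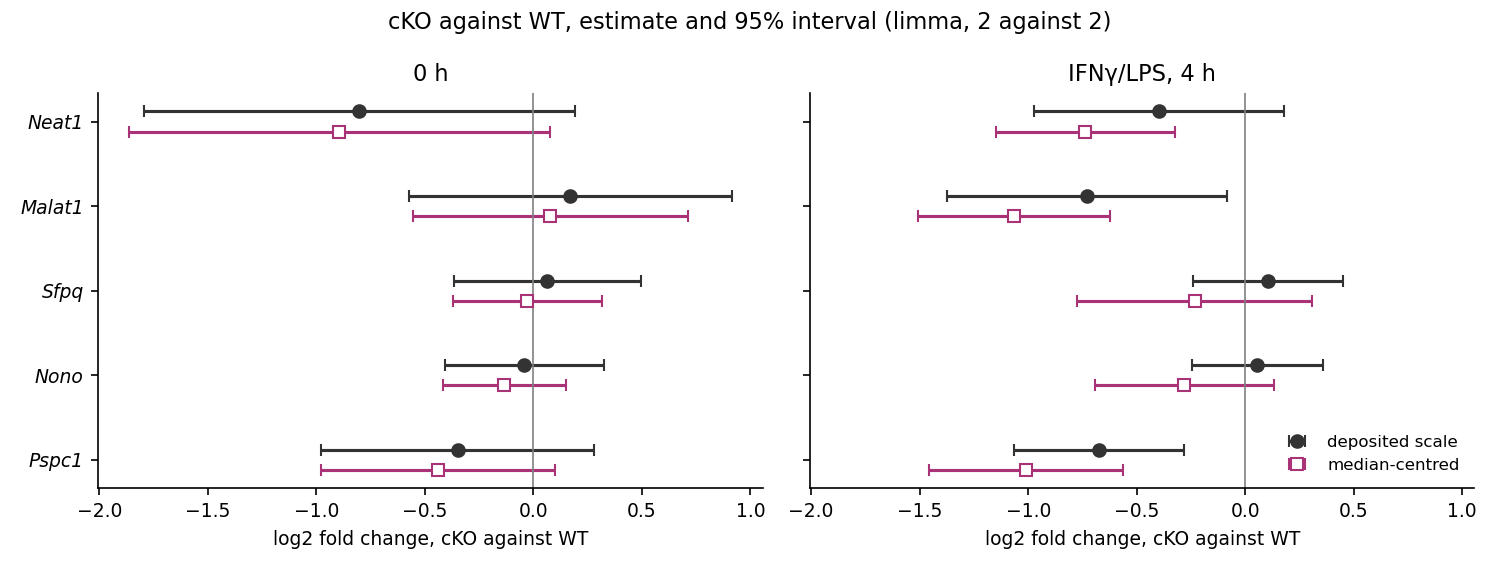
Log2 fold change of cKO against WT with its 95% interval for each gene at 0 h (left) and 4 h (right), as filled circles on the deposited scale and open squares after median-centring. At 4 h the intervals of Malat1 and Pspc1 lie below 0 on both scales and that of Neat1 on the centred scale only, while those of Sfpq and Nono include 0.

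The genotype difference averaged over both times, a fit added after the values were seen, used all 8 samples. It treats the 0 h and 4 h samples as independent, which does not hold if equal numbers mark the same mice. On this average 4.35% of 16284 genes were called lower, and 7.73% after median-centring. Neat1 was lower in cKO by 0.60 ± 0.20 (SE) on the log2 scale and was called (adjusted p = 0.087, limma), and after median-centring by 0.83 (adjusted p = 0.035, limma). Of the 8 fits without 1 sample, only those without WT sample 2 at 0 h or WT sample 1 at 4 h kept the call, and without WT sample 1 at 0 h the value was −0.42. Pspc1 was lower by 0.51 ± 0.12 (adjusted p = 0.040), short of a fold of 1.5 on the deposited scale but past it after median-centring, at −0.74 (adjusted p = 0.016). Malat1 averaged −0.28 (95% interval −0.71 to 0.15) on the deposited scale and −0.51 (−0.83 to −0.18; adjusted p = 0.055, limma) after median-centring, short of the fold threshold on both. Sfpq averaged 0.08 and Nono 0.01, and the signs for Sfpq and Nono turned with median-centring to −0.14 and −0.22.

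Whether the genotype difference changed with stimulation was tested as an interaction. An interaction was called at an adjusted p under 0.05, as for 3.05% of genes, and no member was called. The largest value was that of Malat1, whose cKO against WT difference was lower at 4 h than at 0 h by 0.90 ± 0.33 (SE; adjusted p = 0.21, limma), and by 1.17 after median-centring (adjusted p = 0.097). The difference for Neat1 was 0.40 (95% interval −0.60 to 1.41), and 0.14 (−0.76 to 1.03) after median-centring. That for Pspc1 was −0.33 (−0.95 to 0.30), and −0.59 (−1.16 to −0.02; adjusted p = 0.22, limma) after median-centring, where the interval excludes 0 but the adjusted p did not pass. Sfpq was at 0.04 and Nono at 0.10, with signs that turned to −0.23 and −0.17 after median-centring.

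The Neat1/Malat1 ratio moved in opposite directions at the 2 times. At 4 h it was 0.302 and 0.283 in the WT pair and 0.417 and 0.324 in the cKO pair, so it was higher in both cKO samples, whereas at 0 h it was lower in both. On the log2 scale the cKO minus WT difference was −0.97 at 0 h and 0.33 at 4 h. With labels permuted within each time the exact two-sided p of this change was 0.0556, the smallest that the 36 labellings allow, and 0.139 after adjustment over 15 such ratio tests. The exact test cannot go below 0.333 for 2 samples against 2 at a single time. Permuting within each time also treats the 0 h and 4 h samples as independent, which the labels do not settle. The Neat1/Nono ratio was lower in both cKO samples at each time, at 0.298 and 0.298 against 0.664 and 0.383 at 0 h, and 0.0530 and 0.0465 against 0.0610 and 0.0759 at 4 h (exact p = 0.0556 over both times, adjusted 0.139).

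**Figure D3:**
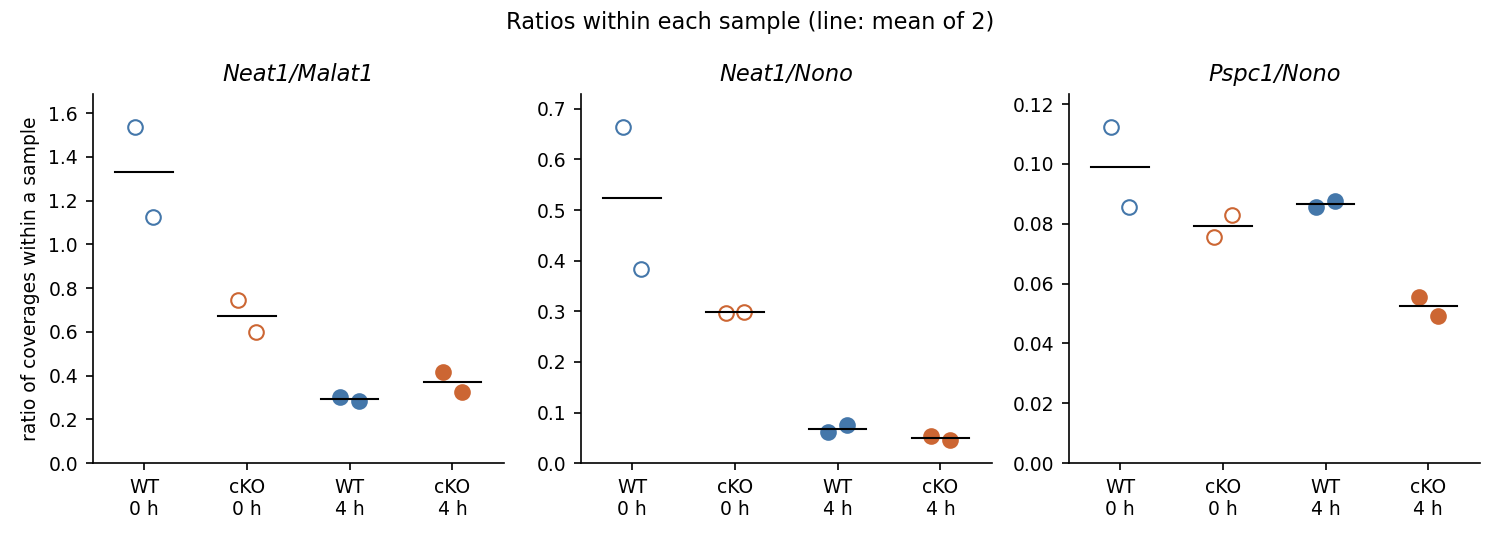
Ratios of coverages within each sample (linear axes from 0; colours and open or filled points as in the plot of coverage by sample, lines at the mean of 2 samples). Neat1/Malat1 is lower in both cKO samples at 0 h and higher in both at 4 h, while Neat1/Nono and Pspc1/Nono are lower in both cKO samples at each time.

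The response to IFNγ/LPS was asked next within each genotype. Most genes had lower coverage at 4 h: 56% of 16284 genes were called lower in WT and 51.9% in cKO, and the sample medians fell by 1.47 in WT and 1.20 in cKO on the log2 scale. A fall on the deposited scale is therefore common among all genes, and the value after median-centring is given beside each. The 0 h and 4 h samples were deposited as separate tables of the same unscaled quantity.

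Neat1 fell in both genotypes and on both scales. In WT it went from 1806 and 1084 at 0 h to 217 and 274 at 4 h, and in cKO from 761 and 846 to 198 and 173, with no overlap, as for 67.9% of genes in WT and 67.4% in cKO. It fell by 2.52 ± 0.28 (SE) in WT, a 5.73-fold difference (adjusted p = 0.00077, limma), and by 2.12 ± 0.28 in cKO, a 4.34-fold difference (adjusted p = 0.0016). After median-centring the falls were 1.05 (adjusted p = 0.016) and 0.92 (adjusted p = 0.026), both called, against 22.2% of genes called lower on that scale in WT and 22.4% in cKO. Each of the 8 fits that leave out 1 sample kept the call in either genotype.

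Malat1 took another course. In WT it was 1175 and 965 at 0 h and 721 and 965 at 4 h, with a log2 fold change of −0.35 (95% interval −0.96 to 0.25), an interval that includes 0, and the groups met at 965. In cKO it went from 1021 and 1407 to 476 and 532, with no overlap, and fell by 1.25 ± 0.24 (SE; adjusted p = 0.0061, limma). After median-centring it was 1.11 higher in WT, which was called (adjusted p = 0.0041) and −0.05 in cKO (adjusted p = 0.82). The Neat1/Malat1 ratio accordingly fell in both genotypes, by 2.17 on the log2 scale in WT and 0.86 in cKO (exact p over both genotypes 0.0556, the smallest possible, adjusted 0.139).

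The DBHS genes kept their coverage while most genes fell. Nono went from 2720 and 2829 to 3565 and 3603 in the WT pair and from 2558 and 2842 to 3741 and 3713 in the cKO pair, by log2 fold changes of 0.37 ± 0.10 and 0.47 ± 0.10 (SE; adjusted p = 0.019 and 0.0085, limma), below the fold threshold. Sfpq was higher at 4 h by 0.25 in WT and 0.29 in cKO (adjusted p = 0.11 and 0.079, limma), and was not called in either. Pspc1 was 305 and 242 at 0 h and 306 and 316 at 4 h in WT, and overlapped between times in cKO. Relative to the median gene, the rises were 1.84 and 1.67 for Nono, 1.72 and 1.495 for Sfpq, and 1.66 and 1.07 for Pspc1, in WT and cKO respectively, each past the call rule. On that scale 34.7% of all genes were called higher in WT and 32.7% in cKO.

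**Figure D4:**
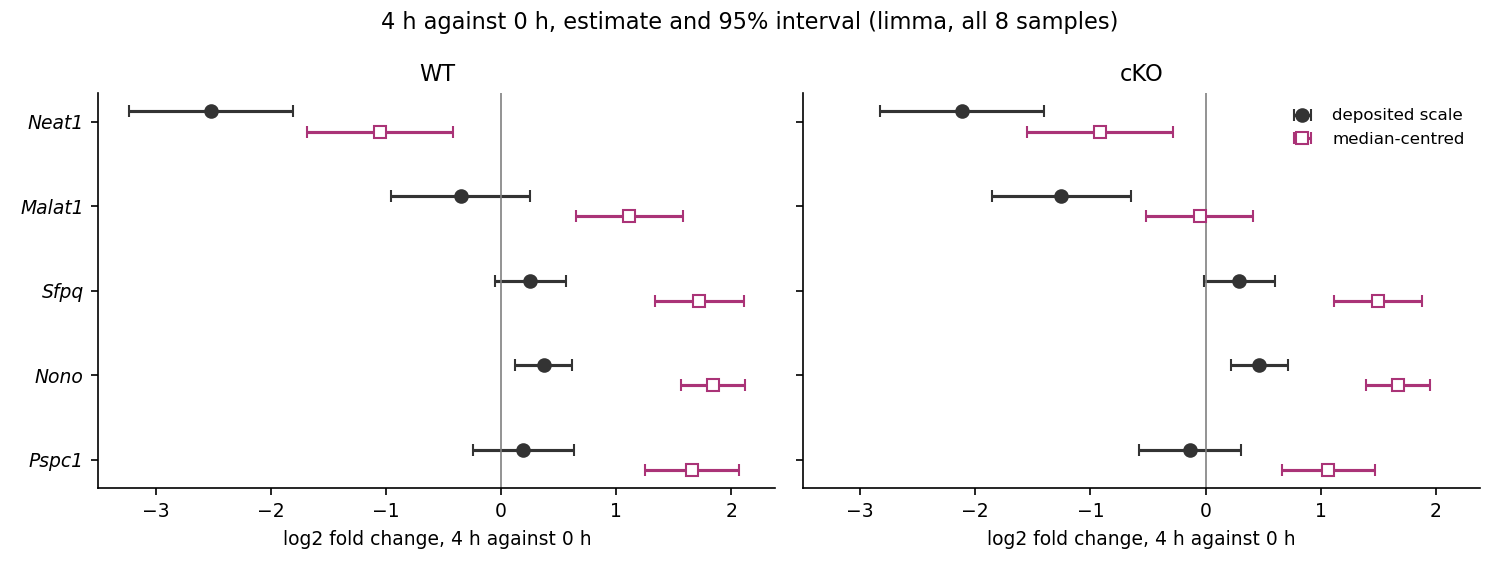
Log2 fold change of 4 h against 0 h with its 95% interval in WT (left) and cKO (right), on the deposited scale (filled circles) and after median-centring (open squares). Neat1 is below 0 on both scales in both genotypes, whereas Sfpq and Nono lie at or above 0 on both, and Malat1 differs between scales.

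Of the factors that choose the 3′ end of Neat1, Nudt21 fell with the deletion and Cpsf6, its partner in CFIm, rose. Nudt21 was lower in cKO by 2.04 at 0 h and 2.13 at 4 h on the log2 scale (adjusted p = 0.046 and 0.044, limma). Cpsf6 went from 804 and 798 in the WT pair to 2406 and 2477 in the cKO pair at 0 h and from 457 and 433 to 1676 and 1753 at 4 h, log2 fold changes of 1.61 and 1.95 (adjusted p = 0.046 and 0.032). Cpsf7, the alternative partner, was 479 and 456 in the WT pair and 738 and 792 in the cKO pair at 4 h, a rise of 0.71 that was called (adjusted p = 0.065) but not after median-centring (0.37), and its value at 0 h was 0.44, which was not called. Hnrnpk, which opposes CFIm at the early site, was 8248 and 8659 in the WT pair and 7337 and 7152 in the cKO pair at 4 h, with a log2 fold change of −0.22 (adjusted p = 0.24), and the groups overlapped at 0 h.

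The other proteins of the paraspeckle are set beside the shares of all genes. Of 27 tested, 1 was called higher and 1 lower at 0 h, and 3 higher and 2 lower at 4 h, or 2 higher and 4 lower at 4 h after median-centring. Of all genes 8.99% were called higher and 5.61% lower at 0 h, and 20.8% higher and 4.17% lower at 4 h, or 10.4% higher and 9.9% lower at 4 h after median-centring. Their median log2 fold change was 0.05 at 0 h and 0.17 at 4 h, against 0.10 and 0.31 over all genes tested. Hnrnpr, an hnRNP that binds pre-mRNA, was the single protein of the list called lower at both times. Its coverage was 720 and 783 in the WT pair and 255 and 285 in the cKO pair at 0 h, and 177 and 281 in the WT pair and 103 and 78.2 in the cKO pair at 4 h, with no overlap at either time. It fell by 1.48 ± 0.13 (SE; adjusted p = 0.069, limma) and by 1.31 ± 0.33 (adjusted p = 0.11). At 0 h all 4 fits without 1 sample kept the call, and at 4 h only the fit without WT sample 1 did.

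Ss18l1, also known as CREST and a subunit of the neuronal BAF complex, was the protein called higher at both times. It was 64.6 in both WT samples and 111 and 119 in the cKO pair at 0 h, and 16.5 and 26.3 in the WT pair and 40.8 and 44.9 in the cKO pair at 4 h (log2 fold changes 0.83 and 1.03, adjusted p = 0.10 and 0.12, limma), and the call at 4 h was lost without either cKO sample and at equal total coverage (0.82). At 4 h the splicing factor Srsf10 was 377 and 385 in the WT pair and 787 and 727 in the cKO pair, a rise of 0.99 (adjusted p = 0.053). The remaining gene called higher was Ubap2l, at 1206 and 1421 in the WT pair and 2139 and 2146 in the cKO pair (0.71), a call lost under all 3 other scalings and without either cKO sample. Hnrnph1, a splicing regulator that binds G-rich RNA, was 1983 and 2097 in the WT pair and 1238 and 1348 in the cKO pair at 4 h, a fall of 0.66 (adjusted p = 0.072) whose call was lost without cKO sample 3 (−0.60), while its groups overlapped at 0 h.

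**Figure D5:**
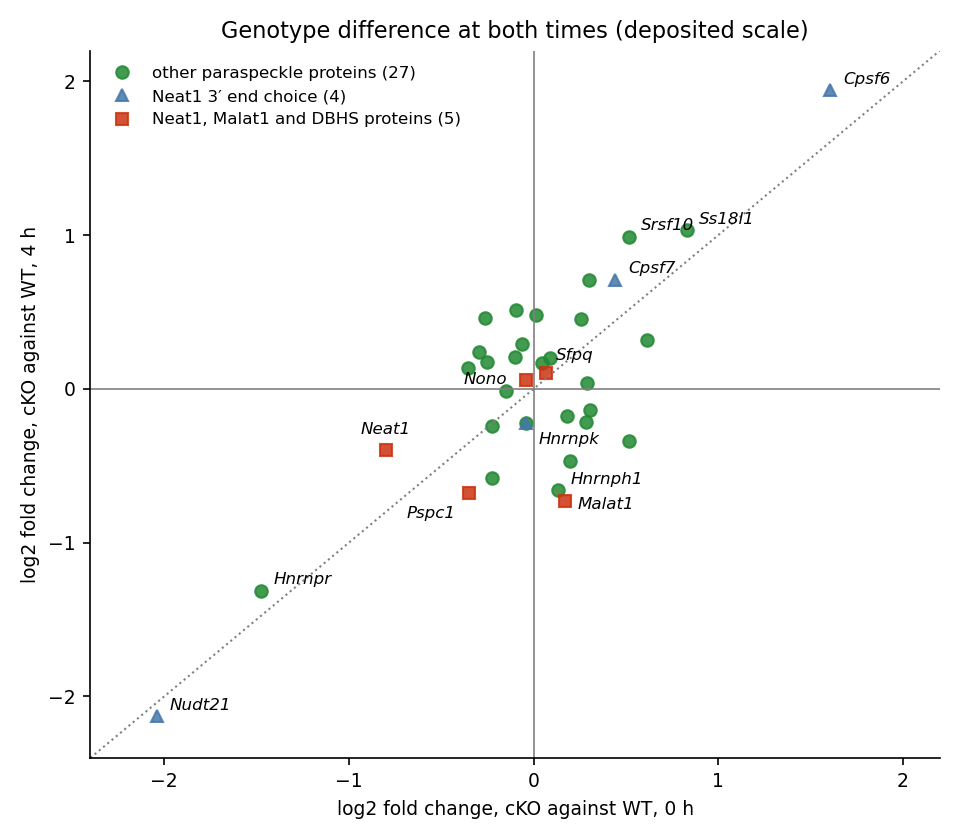
Genotype difference (log2, cKO over WT) at 0 h (horizontal) and 4 h (vertical) on the deposited scale for the 5 members (red squares), the factors of Neat1 3′ end choice (blue triangles) and the other paraspeckle proteins (green circles; Hnrnpk is in both of these lists), with a dotted line where both times are equal. Nudt21 and Hnrnpr lie low at both times and Cpsf6 high, while Malat1 is near 0 at 0 h and at −0.73 at 4 h.

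Partners of these RNAs are read against the 14.6% of all genes called at 0 h and the 25% called at 4 h. Of the 9 genes of the HEXIM1-DNA-PK-paraspeckle complex, which senses foreign DNA, none was called at 0 h. At 4 h Pspc1 was called lower, and Hexim1, an inhibitor of the elongation factor P-TEFb, was called higher at 157 and 151 in the WT pair and 228 and 247 in the cKO pair (0.62, adjusted p = 0.073, limma), a call that was lost after median-centring and without cKO sample 4 (0.57). RNase P cuts the 3′ ends of Malat1 and long Neat1. Of the RNase P and RNase Z genes, 1 of 12 was called at 0 h (Pop1, 0.72 higher in cKO, kept only without cKO sample 3) and 1 of 11 at 4 h. That was Rpp40, at 22.7 and 23.6 in the WT pair and 12.97 and 14.5 in the cKO pair (−0.75, adjusted p = 0.067). Of 22 nuclear speckle proteins, 1 was called at each time, both lower (Srsf1 at 0 h and Pnn at 4 h), or 3 lower at 4 h after median-centring. Of all genes 5.61% were called lower at 0 h, 4.17% at 4 h and 9.9% at 4 h after median-centring. Srsf1, a splicing factor, was 1253 and 1073 in the WT pair and 786 and 740 in the cKO pair at 0 h (−0.60, kept only without WT sample 2), but 344 and 351 against 534 and 472 at 4 h (0.53, not called), and its interaction was called (1.13, adjusted p = 0.047, limma), though not after median-centring (0.87, adjusted p = 0.10). Pnn, a splicing-associated protein, was 229 and 261 in the WT pair and 161 and 133 in the cKO pair at 4 h (−0.74, adjusted p = 0.093), a call kept only without cKO sample 3.

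Other long noncoding RNAs are set beside the shares of all genes called (8.99% higher and 5.61% lower at 0 h, 20.8% and 4.17% at 4 h). At 0 h 2 of 23 were called higher and 0 lower by limma, and at 4 h 4 of 25 were called higher and 0 lower. After median-centring 2 were called higher and 2 lower at 4 h, against 10.4% and 9.9% of all genes, the latter Snhg3 (−0.86) and Snhg15 (−0.82), named after their values were seen. The 4 called higher at 4 h included Epb41l4aos (0.77) and Gm16685 (0.93), which lost the call after median-centring. Oip5os1 (also called Cyrano) and Snhg14 rose at both times on the deposited scale. Oip5os1 was 485 and 559 in the WT pair and 1044 and 1128 in the cKO pair at 0 h, and 155 and 154 in the WT pair and 475 and 485 in the cKO pair at 4 h (1.06 and 1.64, adjusted p = 0.10 and 0.035, limma). Snhg14 was 44.9 and 43.4 against 82.2 and 78.3 at 0 h, and 2.52 and 5.34 against 15.4 and 14.1 at 4 h (0.86 and 1.97, adjusted p = 0.097 and 0.093, limma), and its call at 4 h was lost without either cKO sample and that at 0 h with all 8 samples in the fit.

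None of 11 transcription factors reported to act on Neat1 was called between genotypes at either time by limma, against 14.6% of all genes at 0 h and 25% at 4 h. With stimulation Hif1a, Stat3, Nfkb1 and Rela were called higher in WT and in cKO, against 12% and 13.5% of all genes, while the other 7 in WT and 6 in cKO were called lower on the deposited scale, as were 56% and 51.9% of all genes. After median-centring 7 were called higher and 1 lower in WT and 5 higher and 1 lower in cKO, against 34.7% higher and 22.2% lower of all genes in WT and 32.7% and 22.4% in cKO. Nfkb1, an NF-κB subunit, went from 1951 and 1647 to 11474 and 10601 in the WT pair over the same interval in which Neat1 fell.

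The genes beside Neat1 and Malat1 were examined at 4 h, when 20.8% of all genes were called higher and 4.17% lower. Of 13 tested neighbours within 100 kb at 4 h, 5 were called higher (Map3k11, Fam89b, Tigd3, Gm42067 and Pola2) and 0 lower by limma, with a median log2 fold change of 0.29 against 0.31 over all genes, and 2 higher and 0 lower after median-centring, where 10.4% of all genes were called higher and 9.9% lower. Fam89b was 299 and 365 in the WT pair and 903 and 824 in the cKO pair at 4 h but 1832 and 1653 against 1575 and 1590 at 0 h, and reads of Fam89b cannot be told from those of overlapping genes on either strand, since strand use in the counting is not given. Pola2, a subunit of DNA polymerase alpha, was 179 and 198 in the WT pair and 348 and 355 in the cKO pair at 4 h (0.90, adjusted p = 0.058, limma), and Map3k11, a MAP kinase kinase kinase, was 329 and 374 against 607 and 570 (0.75, adjusted p = 0.072). Both calls were lost after median-centring (0.56 and 0.41), and that of Map3k11 also without either cKO sample. Tigd3 and Gm42067 were low, with coverage of at most 6.36 and 9.81. Frmd8, the nearest coding gene on the Neat1 side, was 374 and 448 against 418 and 406 (0.01). Among the others, Gm16538 was listed above 0 in 1 sample alone, and the log2 fold changes were 0.29 for Dpf2, 0.29 for Ehbp1l1, −0.13 for Cdc42ep2, −0.09 for Ltbp3 and −0.31 for Slc25a45, none of them called. The signs for Frmd8, Dpf2 and Ehbp1l1 turned after median-centring.

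Genes whose profile was most like each member are given as a description over the 8 samples, which share the large fall of the median at 4 h. Among 12024 genes whose mean coverage reached 10, after median-centring, Neat1 was most like Dnase1 (Pearson r = 0.987), C130013H08Rik (0.983) and Bcl2l12 (0.979), and Malat1 most like Rpa3 (0.988), Prpf39 (0.972) and Cenpn (0.971). Pspc1 was most like Bco2 (0.996), Setd3 (0.995) and Mat2a (0.993). Sfpq (Fcer1g, Ppib and Srrm1) and Nono (Napsa, Cdk6 and Stau1) each had r of at least 0.999 with their 3 nearest genes, but 4026 genes exceeded 0.9 with Sfpq and 4008 with Nono, against 1553 with Pspc1, 179 with Neat1 and 89 with Malat1. Within the members, Sfpq and Nono had r = 0.995, Neat1 and Malat1 r = −0.07, and Neat1 and Nono r = −0.66.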

How the data were processed

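The authors aligned paired-end reads of total RNA to mm10 (GRCm38) with HISAT2 2.2.1 and quantified RefSeq genes with StringTie 2.1.7. The deposited coverage signal is the mean read depth per base and gene. The tables name no unit, so it was read from the values, and read counts are not given. The design had allowed for counts, and limma for normalized values was used instead. The tables also hold the authors' own fold changes and p-values, which were not used. The labels name the stimulation for all samples, and the titles alone show which were untreated. Coverage was analysed as log2(coverage + 0.1) with limma 3.58.1 in R 4.3.3 for genes with a mean of at least 0.5, tested on simulated data. Genotype was compared within each time, stimulation and interaction in all 8 samples. Named genes were the members, the 4 factors of Neat1 3′ end choice, tested neighbours within 100 kb, the 3 genes most like each member and, per list, the 2 largest called rises and falls at 4 h, with paraspeckle proteins called at both times. Members and lists were chosen with earlier results of these data known. Alternatives covered pseudocount, filter, scaling, variance trend, replicate block and leaving out each sample. Protein sequences were not analysed here, and some results for withheld genes are not reported here.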

Additional observations from a re-analysis of the deposited data

Results flagged for a closer look

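The genotype difference of the Neat1/Malat1 ratio moved from −0.97 at 0 h to 0.33 at 4 h on the log2 scale, a change of 1.30, with the samples of the 2 genotypes apart in opposite directions at the 2 times (exact p = 0.0556, the smallest the 36 labellings allow, adjusted 0.139 over 15 ratio tests).

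Hexim1 was 591 and 511 in the WT pair and 420 and 435 in the cKO pair at 0 h but 157 and 151 against 228 and 247 at 4 h, a change of the log2 genotype difference by 0.99 (interaction adjusted p = 0.0506, limma). Srsf1, of the nuclear speckle list, changed its difference by 1.13 (interaction adjusted p = 0.047, limma). On the deposited scale 3.05% of all genes were called in the interaction, and after median-centring neither Hexim1 nor Srsf1 was called. The long noncoding RNA Snhg15 was 100.5 and 73.8 in the WT pair and 107.5 and 115.8 in the cKO pair at 0 h, and 68.3 and 85.7 against 50.4 and 59.2 at 4 h, a change of −0.86 (interaction adjusted p = 0.18, limma).

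Fam89b, a neighbour of Neat1 and Malat1, changed its genotype difference by 1.52 between the times (interaction adjusted p = 0.0308, limma). Tigd3, another neighbour, was 4.78 and 6.36 in the WT pair and 0.0039 and 1.62 in the cKO pair at 0 h, but listed at 0 in the WT pair and 5.61 and 2.11 in the cKO pair at 4 h. Its change of 8.88 depends on the added 0.1 (interaction adjusted p = 0.083, limma).

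Ighm, from the B cell marker list, was 433 and 425 in the WT pair and 767 and 894 in the cKO pair at 0 h, and 91.7 and 119 against 54.6 and 70.5 at 4 h, a change of −1.70 (interaction adjusted p = 0.0506, limma, and −1.96 with adjusted p = 0.0269 after median-centring). Its part in the members' values was not tested.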

How the results depend on the processing

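Scaling moved the calls at 4 h and with stimulation, while the count of interactions also moved with the block, trend and filter. Why was not tested. At 0 h 1461 higher and 912 lower became 1178 and 1135 after median-centring. At 4 h the calls in cKO against WT, 3112 higher and 624 lower, became 1552 and 1480 after median-centring, 1530 and 1476 after quantile normalization and 1941 and 1013 at equal total coverage, and 1765 to 4000 were higher when 1 sample was left out. Averaged over both times, 2164 higher and 709 lower became 1230 and 1259 (centred) and 1233 and 1262 (quantile). For stimulation, 1956 higher and 9121 lower in WT became 5653 and 3621 (centred) and 3650 and 4922 (quantile), and 2196 and 8458 in cKO became 5322 and 3650 and 3548 and 4984.

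In the order centred, quantile and equal total, Sfpq turned to −0.027, −0.061 and −0.057 at 0 h, −0.23, −0.11 and −0.11 at 4 h, −0.14, −0.088 and −0.082 on average and −0.23, −0.029 and −0.049 in the interaction. Nono turned to −0.28, −0.17 and −0.16 at 4 h and −0.22, −0.17 and −0.16 on average, and to −0.17 in the interaction when centred. Frmd8 turned to −0.33, −0.32 and −0.20, Ehbp1l1 to −0.052 when centred and −0.050 by quantile, and Dpf2 to −0.047 when centred. Calls were gained for Neat1 at 4 h (−0.74 centred, −0.73 quantile) and Pspc1 on average (−0.74, −0.69 and −0.68). Neat1 at 0 h, −0.80, was called with a mean filter of 5, a variance trend on level or all 8 samples in the fit.

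For stimulation, Malat1 in WT turned to 1.11 centred and 0.062 by quantile, and in cKO its call was lost at −0.051 centred. Calls were gained when centred for Sfpq (1.72 in WT, 1.495 in cKO), Nono (1.84 and 1.67) and Pspc1 (1.66 in WT). In cKO Pspc1 turned to 1.07 centred and 0.89 by quantile, and by quantile it was 1.26 in WT.

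Mean coverages in WT and cKO at 0 h and then WT and cKO at 4 h, scaled to equal medians, were 774, 819, 1674 and 787 for Malat1, 1754, 1717, 5825 and 4847 for Sfpq, 2008, 1828, 7201 and 5815 for Nono and 198, 145, 624 and 304 for Pspc1. Those of Neat1 were 544 in cKO at 0 h, and 489 and 289 at 4 h. At equal totals Sfpq at 4 h was 3119 in WT and 2896 in cKO, Nono was 2895 in WT at 0 h, 3873 in WT and 3478 in cKO at 4 h, and Pspc1 was 336 in WT at 4 h.

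Leaving out 1 sample at 0 h gave −1.17 to −0.43 for Neat1, −0.060 to 0.40 for Malat1 and −0.023 to 0.15 for Sfpq. It also gave −0.12 to 0.035 for Nono, −0.515 to −0.18 for Pspc1, −0.10 to 0.012 for Hnrnpk and −0.042 to 0.30 for Hnrnph1. At 4 h it gave −0.94 to −0.52 for Malat1, −0.77 to −0.58 for Pspc1, −0.34 to 0.089 for Cdc42ep2, −0.12 to 0.14 for Frmd8, −0.41 to 0.23 for Ltbp3 and −0.80 to 0.18 for Slc25a45. Averaged over both times it gave −0.78 to −0.42 for Neat1, −0.030 to 0.045 for Nono and −0.59 to −0.43 for Pspc1. In the interaction Sfpq ran from −0.049 to 0.13, Neat1 from 0.034 to 0.77 and Pspc1 from −0.49 to −0.16. With stimulation, Malat1 in WT ran from −0.56 to −0.14 and Pspc1 in cKO from −0.28 to 0.0090. A lone sample is assumed to vary like the other groups.

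The interaction gave 372 genes higher and 124 lower, against 174 and 172 centred, 210 higher by quantile, 615 with a mean filter of 5 and 1035 and 247 with a variance trend, and 117 to 546 higher and 67 to 146 lower without 1 sample. With the replicate block there were 15 and 16. The labels do not say that numbers pair 0 h with 4 h, and deviations of same-numbered samples correlated at 0.0204 in WT and 0.0237 in cKO, or 0.085 and 0.0584 over genes with a mean above 10, so a pairing was neither stated nor settled by these values. For the stimulation and interaction values of the 5 members the block changed no call. A block could not be fitted within a time, where no genotypes share numbers. Coverage gives no read counts, so the depth behind low values is unknown.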
